A study of Mus musculus with 12 samples.

Results

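The RNA of 7 T-box transcription factors was followed in mouse embryonic hearts that lacked HIRA in the *Mesp1* lineage. The genes were *Tbx1*, *Tbx2*, *Tbx3*, *Tbx4*, *Tbx5*, *Tbx18* and *Tbx20*, taken by symbol from a table of 20368 genes, in which all 7 had a row. Each of the 4 groups held 3 RNA-seq libraries, at E11.5 and at E12.5. All embryos were on the CD1 strain and carried *Mesp1Cre* and 1 floxed *Hira* allele. Controls were Mesp1Cre;Hira+/fl, with a wild type second allele, and mutants were Mesp1Cre;Hira-/fl, whose second allele is a constitutive null. *Mesp1Cre* recombines in the early mesoderm that forms most of the heart, so neural crest cells are not targeted, and the control hearts also lose 1 *Hira* copy in that lineage. The sources do not say whether a library held 1 heart or several, so the p-values measure the spread between these libraries, which may in part be technical.

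T-box factors bind DNA through a shared domain called the T-box, and they act on the heart in opposing ways. TBX5 and TBX20 work with NKX2-5 and GATA4 to turn on the working muscle programme of the chambers, whereas TBX2 and TBX3 repress that programme in the atrioventricular canal and the conduction system. TBX18 marks the sinus horns and the epicardium, TBX1 acts in the second heart field and pharyngeal mesoderm that build the outflow tract, and TBX4 is best known from the hindlimb and the lung mesenchyme.

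The 12 libraries held between 11994148 and 17483982 counts assigned to genes. The label of heart tissue was met by all 8 cardiomyocyte markers, whose summed level ran from 19311 to 27383 CPM, the count scaled to a common library size after TMM normalisation. *Hira* itself was at 79.2, 85.4 and 68.3 CPM in E11.5 controls and at 74.4, 56.6 and 63.4 CPM in E11.5 mutants. At E12.5 it was at 77.6, 85.8 and 60.8 CPM in controls and at 80.3, 71.5 and 70.9 CPM in mutants. The groups overlapped at both stages, and a count over the whole gene does not isolate the deleted exon, so it is no check of the labels. Markers of liver and of lung or foregut epithelium were uneven among libraries: the liver sum ran from 3.71 to 60.6 CPM and the lung sum from 0.431 to 20.3 CPM. All E11.5 controls had a summed Y-linked count of at least 100, as did 1 of 3 libraries in each of the other groups. Summed erythroid markers lay between 2078 and 2625 CPM in E12.5 mutants, below the 3784 to 6163 CPM of the controls of that stage, and their part in the E12.5 values was not tested.

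The 7 factors spanned a wide range of level per transcript length. Expressed as RPKM, computed here from the recovered counts with library size and gene length as divisors, the mean over 12 libraries was 54.4 for *Tbx20*, 25 for *Tbx18*, 13.7 for *Tbx5*, 6.79 for *Tbx2* and 2.45 for *Tbx3*. *Tbx1*, at 0.43 RPKM, and *Tbx4*, at 0.197 RPKM, fell under the mean of 0.5 RPKM asked of a gene in the tests over 12 libraries. Among the 12270 genes above that mean, *Tbx20* stood at percentile 86.7, *Tbx18* at 71.7, *Tbx5* at 55.2, *Tbx2* at 35.8 and *Tbx3* at 16.8. This order held in all 12 libraries except between *Tbx5* and *Tbx2*, where it held in 11. The exception was E11.5 mutant replicate 3, with 8.61 RPKM of *Tbx5* and 8.87 RPKM of *Tbx2*. *Tbx1* was above *Tbx4* in 11 of 12 libraries, and the ranges of both in RPKM overlapped within each of the 4 groups.

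**Figure D1:**
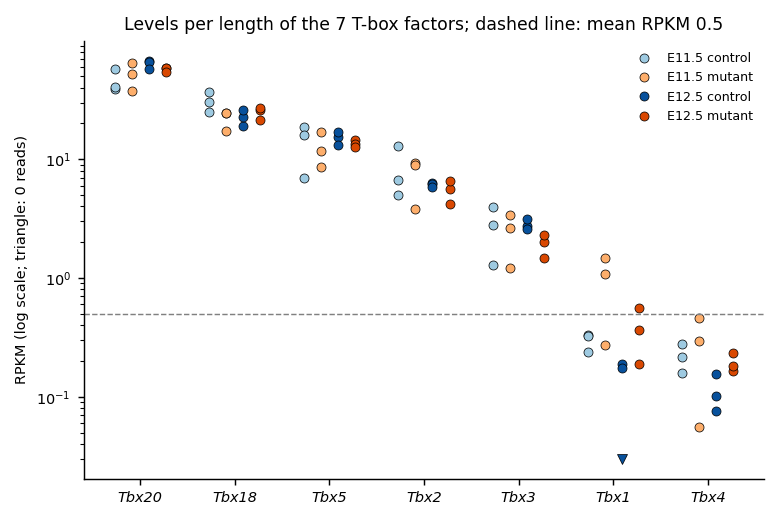
RPKM on a log axis of the 7 T-box factors in each of the 12 libraries, coloured by group, with a triangle for a library without reads. *Tbx20* lies between 37.8 and 67.6 RPKM and *Tbx4* between 0.0556 and 0.457 RPKM, and the dashed line marks the mean of 0.5 RPKM used as a filter.

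No T-box factor was called changed at either stage, which asked for an adjusted p no higher than 0.05 together with a difference of 1.5-fold or more (edgeR quasi-likelihood test, Benjamini-Hochberg adjustment over all genes tested). At E11.5, 0 of the 6 tested factors were called, against 0.115% of the 12197 genes tested, and of the 5 left without *Tbx1*, which passed the filter only through its mutant group, *Tbx18* alone had an unadjusted p under 0.05, against 10.2% of all genes. At E12.5, 0 of the 5 tested factors were called, against 2.95% of 12257 genes, and only *Tbx3* had an unadjusted p under 0.05, against 21.4%. In a model of both stages with stage as a term, 0 of 5 were called, against 3.22% of 12270 genes, and none had an unadjusted p under 0.05, against 19.4%. DESeq2 called 0 factors in each of these 3 comparisons too. Over these 5 factors the median log2 fold change was -0.17 for E11.5 and -0.17 for E12.5, beside 0.00 and -0.00 over all genes.

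**Figure D2:**
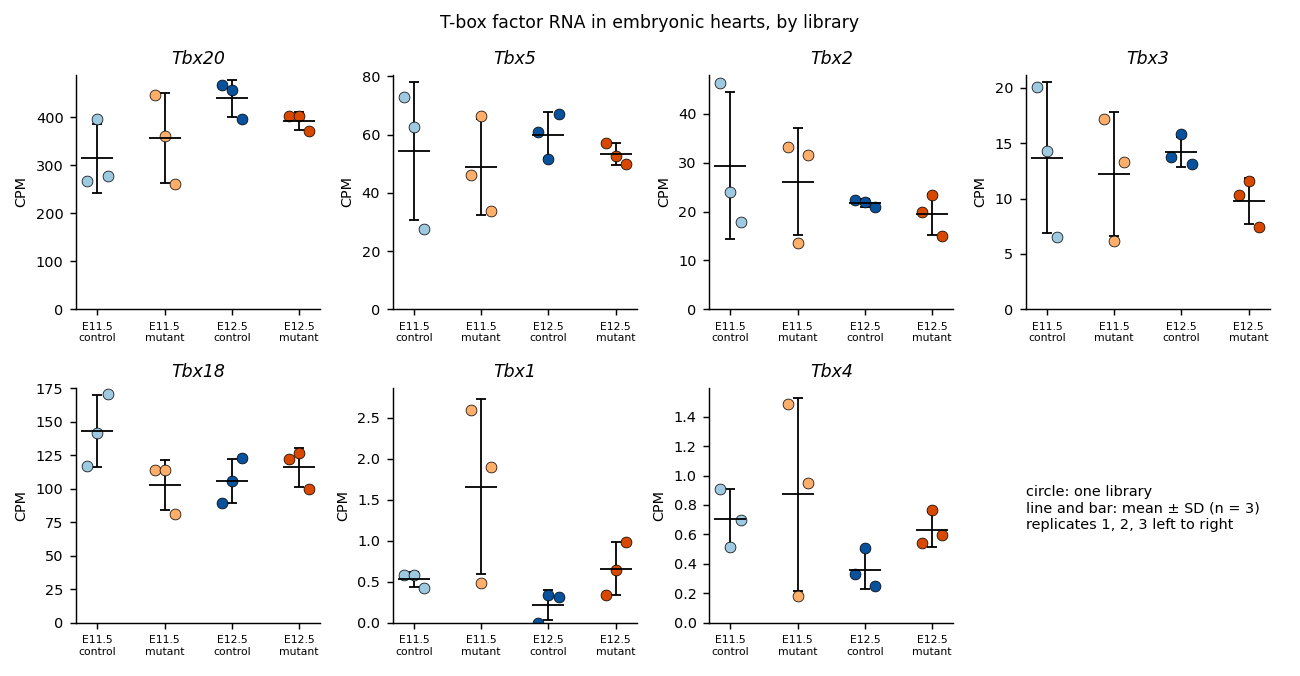
CPM of each T-box factor in each library, by group, with the mean and SD of 3 libraries. *Tbx2*, *Tbx3* and *Tbx5* differ by 1.96-fold to 3.06-fold among the libraries of 1 genotype at E11.5, and *Tbx3* is lower in all 3 mutant libraries at E12.5.

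Of the chamber activators, *Tbx20* had the highest level of all 7 factors, and *Tbx5* came after *Tbx18*. *Tbx20* (chromosome 9, 24720812 to 24774303, minus strand, mm10 as are all positions given here) encodes a factor needed for growth of the chamber muscle and for the endocardial cushions. Its level was 267, 397 and 277 CPM in E11.5 controls and 447, 361 and 260 CPM in E11.5 mutants, and the groups overlapped. At E12.5 it was 466, 456 and 396 CPM in controls and 402, 403 and 371 CPM in mutants. Here 1 control library lay among the mutants and the other two lay above them. The log2 fold change was 0.18 (adjusted p = 0.888 by edgeR, SE 0.22) at E11.5 and -0.17 (adjusted p = 0.27, SE 0.08) at E12.5. The 95% interval at E12.5 ran from -0.35 to 0.01, so a change as large as 1.5-fold lay outside it. That of E11.5, from -0.32 to 0.68, still held a 1.5-fold rise. In 1 fit of all 12 libraries, which pools the spread of both stages, the E12.5 SE of *Tbx20* was 0.183.

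*Tbx5* (chromosome 5, 119834663 to 119885218, plus strand) encodes the factor of the left ventricle and atria whose loss of 1 copy causes Holt-Oram syndrome in people. It was measured at 72.9, 62.6 and 27.5 CPM in E11.5 controls and at 46.2, 66.4 and 33.9 CPM in E11.5 mutants. Replicate 3 of both genotypes was the lowest of its group, and the ranges overlapped almost wholly. At E12.5 the controls had 60.9, 51.6 and 67.2 CPM and the mutants 57.2, 52.7 and 50 CPM, again overlapping. The log2 fold change was -0.16 (adjusted p = 0.945 by edgeR, SE 0.35) at E11.5 and -0.17 (adjusted p = 0.385, SE 0.10) at E12.5. At E12.5 the 95% interval ran from -0.40 to 0.06, so 1.5-fold lower lay outside it, and at E11.5 it ran from -0.94 to 0.63. In 1 fit of all 12 libraries the E12.5 SE of *Tbx5* was 0.29, so the bound at E12.5 held for the fit of that stage alone.

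The repressors *Tbx2* (chromosome 11, 85832551 to 85841948, plus strand) and *Tbx3* (chromosome 5, 119670669 to 119684724, plus strand) are close relatives. They were less abundant than the activators. *Tbx2* is known for keeping the atrioventricular canal free of chamber genes, and *Tbx3* for the identity of the sinus node and the conduction tissue. *Tbx2* stood at 46.4, 24 and 17.8 CPM in E11.5 controls and at 33.2, 13.5 and 31.6 CPM in E11.5 mutants. At E12.5 it stood at 22.4, 22 and 20.9 CPM in controls and at 19.9, 23.3 and 15 CPM in mutants. The groups overlapped at both stages, and the log2 fold change was -0.18 (SE 0.40) at E11.5 and -0.17 (adjusted p = 0.545 by edgeR, SE 0.14) at E12.5. Its highest E11.5 control was 2.6-fold above the lowest, whereas its E12.5 controls differed by 1.08-fold.

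*Tbx3* gave the lowest p of the 7 genes between genotypes in a single stage. In E11.5 controls it was at 20.1, 14.3 and 6.57 CPM and in E11.5 mutants at 17.2, 6.16 and 13.3 CPM, which overlapped. At E12.5 the controls had 211, 282 and 213 counts, or 13.8, 15.8 and 13.1 CPM, and the mutants 152, 197 and 113 counts, or 10.3, 11.6 and 7.45 CPM. All 3 mutants lay below all 3 controls. *Tbx3* was the only one of the 5 tested factors whose groups did not overlap at E12.5, which 26.2% of all genes tested did too. The log2 fold change at E12.5 was -0.55 (SE 0.17, 95% interval -0.91 to -0.18), or 0.685 of the control level, with an unadjusted p of 0.00736 and an adjusted p of 0.0881 by edgeR. An exact two-sided permutation test of 3 libraries against 3 gave 0.1, the smallest p it can give. The call was thus missed on both limits, and over the alternatives tried the adjusted p ran from 0.0462 to 0.647. The highest came from 1 edgeR fit of all 12 libraries, where the SE was 0.375. At E11.5 the log2 fold change was -0.17 (adjusted p = 0.953, SE 0.44), and the difference of the mutant effects between the stages was -0.38 (adjusted p = 0.956, SE 0.53).

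**Figure D3:**
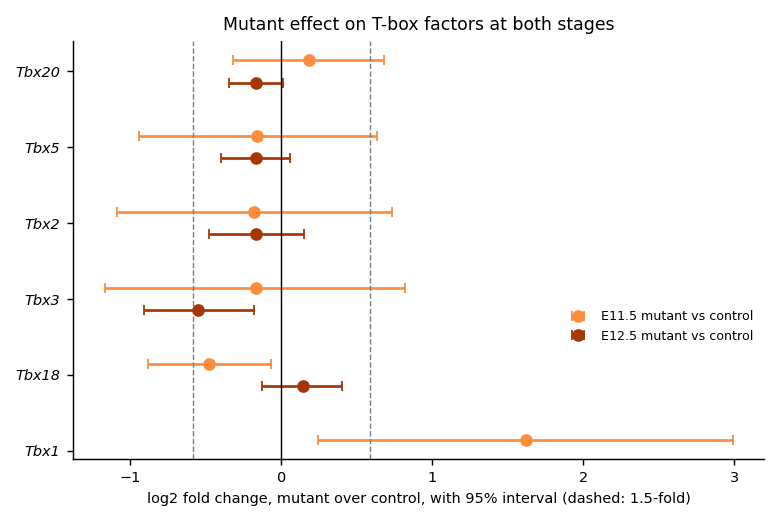
Log2 fold change of mutant over control hearts with its 95% interval for each tested T-box factor at E11.5 and E12.5, with dashed lines at 1.5-fold. The E12.5 interval of *Tbx3*, from -0.91 to -0.18, lies wholly below 0 and those of E11.5 are wider than those of E12.5 for each factor tested at both stages.

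Because paralogues could share reads, the transcripts of the 7 genes (GENCODE vM21, on the same build) were searched for common stretches of 30 bases. *Tbx2* and *Tbx3* had none. Their longest common run of coding bases was 14, and it lies in exon 1 of both genes. The window of 60 coding bases around it is shown because *Tbx2* and *Tbx3* varied together among the libraries, and capitals mark the bases that differ, with 50 of 60 identical. The *Tbx2* window is at chr11:85833408-85833467 and the *Tbx3* window at chr5:119672311-119672370, both on the plus strand.
Tbx2: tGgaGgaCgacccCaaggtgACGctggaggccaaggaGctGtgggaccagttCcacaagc
Tbx3: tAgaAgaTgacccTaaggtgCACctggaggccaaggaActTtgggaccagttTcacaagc
Of the 21 pairs, only *Tbx4* and *Tbx20* shared any stretch of 30 bases, 3 in number. Overlap with genes on the opposite strand was larger. The antisense gene *Tbx3os1* shares 697 bases with *Tbx3*, and *D030062O11Rik* shares 1976 bases with *Tbx18* and holds 887 of its 4675 distinct stretches of 30 bases. Use of the strand in counting is not given in the sources used here, so reads of these partners and of *Tbx3* or *Tbx18* cannot be told apart there.

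*Tbx2* and *Tbx3* varied together across the 12 libraries. Pearson's r of log2(CPM + 0.5) was 0.87 (permutation p = 0.00032, adjusted p = 0.0067 over the 21 pairs of factors) and Spearman's rho was 0.87 (permutation p = 0.00061, adjusted p = 0.013). The r was 0.94 for deviations from the 4 group means and 0.78 without the 2 libraries farthest from the median of *Tbx2*. The 6 libraries of E11.5 showed it most plainly. *Tbx2* and *Tbx3* were both highest in control replicate 1 and both lowest in mutant replicate 2 and control replicate 3. *Tbx5*, which lies 149938 bases from *Tbx3* on chromosome 5, had an r of 0.32 with it (permutation p = 0.31), and *Tbx4*, which lies 44473 bases from *Tbx2* on chromosome 11, had an r of 0.68 with that gene (permutation p = 0.016, adjusted p = 0.11).

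**Figure D4:**
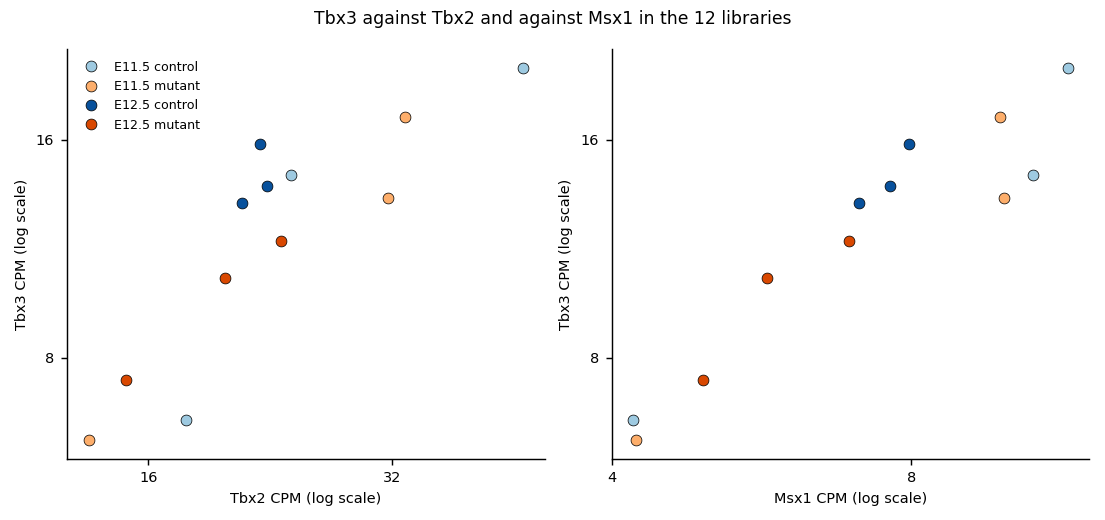
*Tbx3* CPM against *Tbx2* CPM (left) and against *Msx1* CPM (right) in the 12 libraries, on log axes and coloured by group. Control replicate 1 of E11.5 is at the top right of both panels, at 20.1 CPM of *Tbx3*, and the E12.5 mutants at 7.45 to 11.6 CPM lie below the E12.5 controls.

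Among all 12269 other genes with a mean of at least 0.5 RPKM, the one most like *Tbx3* over the 12 libraries was *Msx1* (r = 0.939), a homeobox factor of the BMP response that is active in the atrioventricular cushions, followed by *Brsk1* (0.891) and *Tbx2* itself (0.866). For *Tbx2* the nearest were *Meis3* (0.891), *Msx1* (0.885) and *Psd* (0.873). *Msx1* was at 11.5, 10.6 and 4.2 CPM in E11.5 controls and at 9.84, 4.23 and 9.93 CPM in E11.5 mutants. At E12.5 it was at 7.61, 7.95 and 7.08 CPM in controls and at 5.73, 6.93 and 4.94 CPM in mutants. Its E12.5 mutants all lay below its controls, with a log2 fold change of -0.36 (adjusted p = 0.271 by edgeR, SE 0.18). At that stage 26.2% of all genes tested had groups without overlap. *Msx1* was picked for its likeness to *Tbx3* over these same libraries, so the shared pattern is no separate test. The ratio of the *Tbx2* to the *Tbx3* level, each in RPKM, was 2.19 ± 0.176 in controls and 2.84 ± 0.0589 in mutants of E12.5 (SD, n = 3), without overlap. At E11.5 the ratio was 3.19 ± 0.741 in controls and 3.1 ± 0.316 in mutants. This ratio was chosen after its values were seen and is given without a test.

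The spread within groups set what could be seen at E11.5. There the biological coefficient of variation fitted by edgeR was 0.343 for *Tbx2*, 0.378 for *Tbx3* and 0.3 for *Tbx5*, at percentiles 95.6, 97 and 92.9 of all genes tested. At E12.5 the same genes had 0.122, 0.137 and 0.0924, at percentiles 73.3, 78.5 and 52.7. *Tbx18* and *Tbx20* were less variable at E11.5, with 0.164 and 0.197. The 95% intervals of *Tbx2*, *Tbx3* and *Tbx5* at E11.5 all took in both a fall and a rise of 1.5-fold, so neither was excluded by this fit. With a replicate block the SE of *Tbx5* at E11.5 was 0.187, beside 0.348 without it.

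*Tbx18* (chromosome 9, 87702800 to 87731260, minus strand) had the largest difference of mutant effects between the stages among the 5 factors tested for it. It was at 117, 142 and 171 CPM in E11.5 controls and at 114, 114 and 81.5 CPM in E11.5 mutants. The mutants were all lower, although the highest of them, at 114 CPM, was close to the lowest control at 117 CPM. At E12.5 the controls had 89.3, 106 and 123 CPM and the mutants 122, 127 and 99.5 CPM, and the groups overlapped. The log2 fold change was -0.48 (SE 0.18, 95% interval -0.88 to -0.07, unadjusted p = 0.0257, adjusted p = 0.384 by edgeR) at E11.5 and 0.14 (adjusted p = 0.555, SE 0.12) at E12.5. With a term for embryo sex, which nearly coincides with genotype at E11.5, the E11.5 value was -0.81 (adjusted p = 0.119). *Tbx18* was 1 of the 6 tested factors without overlap at E11.5, as were 16.3% of all genes tested. The difference of the mutant effects, E12.5 minus E11.5, was 0.61 (SE 0.24, unadjusted p = 0.0239, adjusted p = 0.956). In that test 0% of the 12270 genes were called by edgeR and 551, or 4.49%, had an unadjusted p under 0.05, whereas DESeq2 called 41 genes, none of them a T-box factor. The differences of the other 4 tested factors ran from -0.38 for *Tbx3* to 0.01 for *Tbx2*, each with an unadjusted p above 0.1.

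The genes most like *Tbx18* were *Glipr1* (r = 0.918), *Aldh1a2* (0.917), the retinoic acid synthase of the epicardium, and *Wt1* (0.913), an epicardial transcription factor. *Wt1* was at 59.1, 72 and 78.3 CPM in E11.5 controls and at 47.8, 44.5 and 33.1 CPM in E11.5 mutants. *Aldh1a2* was at 96.7, 112 and 133 CPM in E11.5 controls and at 62.1, 65.3 and 35.1 CPM in E11.5 mutants. Both were lower in all 3 mutants, with a log2 fold change of -0.74 (adjusted p = 0.152 by edgeR, SE 0.17) for *Wt1* and -1.07 (adjusted p = 0.131, SE 0.23) for *Aldh1a2*. At E11.5, 16.3% of all genes tested had groups without overlap. Both genes were picked for their likeness to *Tbx18* over these same libraries, so the shared pattern is no separate test. The 8 epicardial and mesothelial markers summed to 535, 668 and 791 CPM in E11.5 controls and to 461, 507 and 455 CPM in E11.5 mutants. At E12.5 they summed to 353, 392 and 517 CPM in controls and to 536, 559 and 523 CPM in mutants. The sums did not overlap at either stage, lower in mutants at E11.5 and higher at E12.5, but the E12.5 difference rested on *Krt19* and *Msln*. Without these 2 genes, left out after their values were seen, the sum of the other 6 was 433, 586 and 665 CPM in E11.5 controls and 324, 364 and 268 CPM in E11.5 mutants. For E12.5 it was 280, 312 and 422 CPM in controls and 359, 390 and 353 CPM in mutants, which overlapped. At E11.5, 7 of the 8 markers had an unadjusted p under 0.05, against 10.2% of all genes, 6 of them lower and *Krt19* higher in mutants, with no adjusted p under 0.131. None of the 8 markers was at 0, and their part in the *Tbx18* values was not tested.

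*Tbx18* is not part of that sum, and the ratio of its CPM to the sum of the 8 markers, times 100, was 21.9, 21.3 and 21.6 in E11.5 controls and 24.7, 22.5 and 17.9 in E11.5 mutants, which overlapped. At E12.5 the ratio was 25.3, 26.9 and 23.7 in controls and 22.8, 22.8 and 19 in mutants, which did not. Over the 6 markers without *Krt19* and *Msln* this turned round. The ratio was then 27.1, 24.2 and 25.7 in E11.5 controls and 35.1, 31.3 and 30.4 in E11.5 mutants, without overlap, and the E12.5 groups, at 31.9, 33.9 and 29.1 in controls and 34.1, 32.7 and 28.2 in mutants, overlapped. These ratios were chosen after the values were seen and have no test. In whole hearts, fewer epicardial cells and less *Tbx18* RNA per cell cannot be told apart, and the same holds for each factor here that marks only some of the cells.

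**Figure D5:**
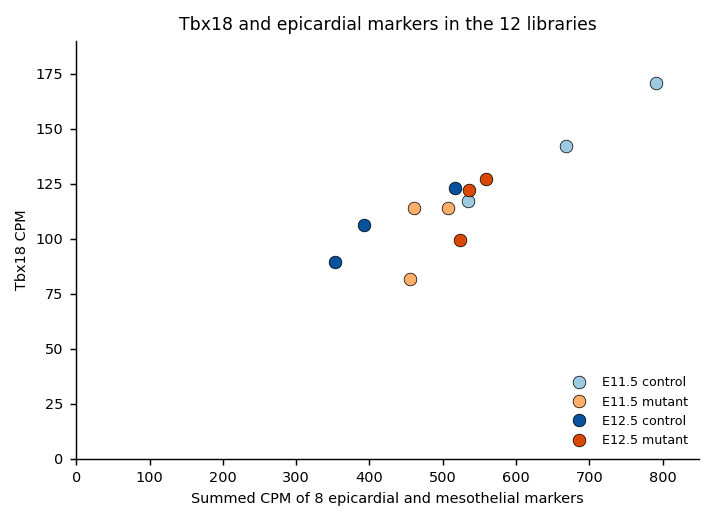
*Tbx18* CPM against the summed CPM of 8 epicardial and mesothelial markers in the 12 libraries, coloured by group. The E11.5 controls reach 171 CPM of *Tbx18* and 791 CPM of the markers, and the E11.5 mutants lie at 81.5 to 114 CPM and 455 to 507 CPM.

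*Tbx1* and *Tbx4* were close to the limit of counting. *Tbx1* (chromosome 16, 18581713 to 18586969, minus strand) lies 290067 bases from *Hira*, and both belong to the mouse counterpart of the region deleted in DiGeorge syndrome. It had 9, 9 and 6 counts in E11.5 controls and 40, 8 and 22 counts in E11.5 mutants, or 0.527 ± 0.0933 and 1.66 ± 1.07 CPM (SD, n = 3). At E12.5 it had 0, 6 and 5 counts in controls and 5, 11 and 15 counts in mutants. A count of 0 allows a level of up to 0.2 CPM in that library, for counting error only. At E11.5 mutant replicates 1 and 3 were above all controls and replicate 2 lay among them. At E12.5 the mutants were all higher, with the lowest at 0.337 CPM and the highest control at 0.336 CPM.

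*Tbx1* passed the filter at E11.5 only, where its mutant group is the one that carried it past, and gave a log2 fold change of 1.62 (SE 0.61, 95% interval 0.24 to 2.99, adjusted p = 0.388 by edgeR). By limma it was 1.15, 0.74 and 0.52 at pseudocounts of 0.1, 0.5 and 1 RPKM, which shrink the change of so low a gene. As single libraries were left out it ran from 1.48 to 2.07 by edgeR where it was still tested. Without mutant replicate 1 of E11.5 *Tbx1* fell under the filter, so that omission gave no value. Without a filter it was 1.54 (adjusted p = 0.285, SE 0.75) at E12.5 and 1.58 (adjusted p = 0.0709, SE 0.48) with stage as a term. The E11.5 library with the most *Tbx1*, mutant replicate 1, was also highest in *Tbx4*, in liver markers (60.6 CPM) and in *Nkx2-1*, a factor of the thyroid and lung, with 50 counts against 5 or fewer in the other E11.5 libraries. Of the 7 lung and foregut markers, 2 reached a mean of 0.5 RPKM, *Cdh1* and *Epcam*. *Sftpc* was at 0 counts in that library and *Shh* at 1. Control replicate 1, with the highest lung sum of E11.5 (20.3 CPM), had 9 counts of *Tbx1*. Without these 2 libraries, a setting chosen after the data were seen, no tested factor was called at E11.5, with stage as a term or in the difference between stages. *Tbx1* was under the filter in each of these fits and was not tested there, so they say nothing on it. A part of such tissue in the *Tbx1* values was not tested.

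*Tbx4* (chromosome 11, 85886422 to 85916097, plus strand) had 14, 8 and 10 counts in E11.5 controls and 23, 3 and 11 counts in E11.5 mutants, which overlapped. At E12.5 it had 5, 9 and 4 counts in controls and 8, 13 and 9 counts in mutants. After scaling, the lowest E12.5 mutant at 0.54 CPM was just above the highest control at 0.504 CPM. Without a filter its log2 fold change was 0.27 (adjusted p = 0.931 by edgeR, SE 0.65) at E11.5 and 0.79 (adjusted p = 0.514, SE 0.57) at E12.5. *Tbx1* and *Tbx4* had a Pearson's r of 0.77 (permutation p = 0.0034, adjusted p = 0.036) and a Spearman's rho of 0.79 (permutation p = 0.0031, adjusted p = 0.033), but r was 0.46 without the 2 libraries farthest from the median of *Tbx1*, so it rested in part on them.

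From E11.5 to E12.5 in controls, which enter the comparisons with mutants too, 0 of the 5 tested factors were called, against 5.28% of 12252 genes, and 2 had an unadjusted p under 0.05, against 32.8%. *Tbx20* was higher at E12.5 by a log2 value of 0.49 (SE 0.15, 95% interval 0.15 to 0.82, adjusted p = 0.0594 by edgeR). Its E11.5 control replicate 2, at 397 CPM, was the 1 library that overlapped with the later stage. With that library left out it was 0.68 (adjusted p = 0.00303, SE 0.111), past both limits, so the missed call rested on it. Over all alternatives the change ran from 0.34 to 0.68, with adjusted p-values of edgeR, DESeq2 or limma from 0.00303 to 0.609. The genes most like *Tbx20* over the 12 libraries were *Myocd* (r = 0.968), the coactivator of cardiac and smooth muscle genes, *Dpysl3* (0.963) and *Dyrk2* (0.96). *Myocd*, picked for its likeness over these same libraries, was also highest of the E11.5 controls in replicate 2, at 72.8 CPM against 33.7 and 40.5 CPM.

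*Tbx18* was lower at E12.5 than at E11.5 in controls by a log2 value of -0.44 (SE 0.15, 95% interval -0.77 to -0.10, adjusted p = 0.0786 by edgeR), with overlapping groups. Over the alternatives it ran from -0.56 to -0.23, always under 1.5-fold, with an adjusted p of 0.0184 under a replicate block and 0.721 with a sex term, and without E11.5 control replicate 3 it was -0.29. The groups of none of the 5 tested factors were free of overlap, against 37.4% of all genes that were. The epicardial markers summed to less at E12.5 in controls, with 5 of 8 called lower and *Msln* called higher. *Tbx5* (0.14, SE 0.28), *Tbx3* (0.06, SE 0.31) and *Tbx2* (-0.44, SE 0.28) had adjusted p-values of 0.763, 0.917 and 0.302. Summed over 3 control libraries, *Tbx1* had 24 counts at E11.5 and 11 at E12.5, and *Tbx4* had 32 and 18. Without a filter their log2 fold changes were -1.24 (adjusted p = 0.342, SE 0.77) and -0.95 (adjusted p = 0.338, SE 0.59). Collection and stage cannot be told apart in this comparison.

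Genes that T-box factors act on or with were examined by lists, whose counts are to be read against the 0.115% of all genes called at E11.5 and the 2.95% called at E12.5, and against the 10.2% and 21.4% with an unadjusted p under 0.05. Of 11 genes of the chamber myocardium, whose programme TBX5 turns on and TBX2 and TBX3 repress, 9 were in the count table. Control of each listed gene by these factors was not tested. None of the 9 was called at E11.5, at E12.5 or with stage as a term, and the median log2 fold change was 0.07 at E11.5 and 0.10 at E12.5. *Myl2* and *Myl7*, myosin light chains, *Nppa*, the atrial natriuretic peptide, and *Nppb* had log2 fold changes of 0.10 (SE 0.07), 0.50 (SE 0.20), 0.26 (SE 0.11) and 0.19 (SE 0.17) at E12.5, each with an adjusted p above 0.1. *Gja1*, which encodes a connexin of the working muscle and is named after its values were seen, passed the adjusted limit at E12.5 with a log2 fold change of 0.49 (adjusted p = 0.039 by edgeR, SE 0.12), under 1.5-fold.

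Of 12 genes of the atrioventricular canal and conduction system, 0 of 11 tested were called at E11.5 and 1 of 12 at E12.5. The median log2 fold change of the list was -0.43 at E11.5, -0.21 at E12.5 and -0.41 with stage as a term, and 4 of 11, 4 of 12 and 6 of 12 genes had an unadjusted p under 0.05. *Rspo3*, a secreted activator of Wnt signalling, was at 39.2, 38.3 and 39.9 CPM in E11.5 controls and at 29.1, 18.7 and 33.3 CPM in E11.5 mutants. At E12.5 it had 22.8, 20.8 and 25.5 CPM in controls and 15.2, 20.3 and 15.4 CPM in mutants, and it was lower in mutants without overlap at both stages. With stage as a term its log2 fold change was -0.49 (adjusted p = 0.0309 by edgeR, SE 0.13), under 1.5-fold. *Msx2*, a homeobox factor of the BMP response, and *Isl1*, a factor of the second heart field and sinus node, had log2 values of -1.31 (SE 0.37) and -1.48 (SE 0.63) at E11.5, without overlap and with adjusted p-values of 0.228 and 0.468 by edgeR. These 3 genes are named after their values were seen, and all 3 were lower in mutants. The list also held *Hcn4*, *Gjd3*, *Cacna1h* and *Gjc1*, with log2 fold changes of 0.89 (SE 0.55), 0.77 (SE 0.54), 0.23 (SE 0.18) and 0.01 (SE 0.12) at E11.5. Groups without overlap were found for 16.3% of all genes tested at E11.5 and 26.2% at E12.5. The called gene was *Gjd3*, which encodes a connexin of the nodes. Its E12.5 controls had 11, 9 and 13 counts and its E12.5 mutants 27, 32 and 37, so that it rose by 1.59 on the log2 scale (adjusted p = 0.0215 by edgeR, SE 0.33). The 4 most abundant genes of the list, *Id2*, *Gjc1*, *Cacna1h* and *Cacna2d2*, had log2 fold changes from -0.75 to 0.07 at E12.5, none of them called. *Bmp2*, the signal that induces *Tbx2* in the canal and is named for that role, gave 14.2, 13.5 and 14.8 CPM in controls and 12.1, 14.6 and 10.5 CPM in mutants of E12.5, which overlapped. The whole list of 20 genes of the BMP and Notch pathways had no call in any comparison of the genotypes, and its median log2 fold change was -0.06 for E11.5 and -0.04 for E12.5. *Smad7* at E12.5 (0.35, adjusted p = 0.0428 by edgeR, SE 0.09) passed the adjusted limit but was under 1.5-fold. So did *Id2* with stage as a term (-0.33, adjusted p = 0.0261, SE 0.08), and both are named here after their values were seen.

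Of 14 cardiac partner factors, 1 was called at E12.5 and 0 at E11.5, with medians of 0.01 and 0.11, and 7 and 2 had an unadjusted p under 0.05. *Gata5*, a GATA factor of the endocardium and epicardium, rose from 40.9, 43.1 and 41.5 CPM in controls to 66.3, 62.3 and 64.3 CPM in mutants, a log2 fold change of 0.62 (adjusted p = 0.00246 by edgeR, SE 0.08). *Nkx2-5* and *Gata4*, the partners of TBX5 and TBX20, had log2 fold changes of -0.15 (SE 0.10) and 0.09 (SE 0.10) at E12.5 and were not called. Of 16 genes of the *Tbx1* network, 9 were tested at E11.5 and 10 at E12.5, with medians of -0.11 and -0.29, and 2 and 6 had an unadjusted p under 0.05. *Foxc2*, a forkhead factor of the outflow tract and vessels, was the 1 gene called, at E12.5, with 13.8, 13.6 and 19.9 CPM in controls and 31.8, 26.2 and 26 CPM in mutants (log2 fold change 0.83, SE 0.15, adjusted p = 0.0142). It was at 17.7, 20 and 15.7 CPM in E11.5 controls and at 33.3, 31.6 and 41.9 CPM in E11.5 mutants, without overlap, with an adjusted p of 0.0815.

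Of 12 partners of *Tbx18* in the epicardium and sinus horns, 8 are the epicardial markers counted above. Of the other 4, 3 were tested at E11.5, where *Sema3d* had an unadjusted p under 0.05 (log2 fold change -0.76, SE 0.34), and none was called. For all 12 the E12.5 median was 0.14, and *Msln* and *Krt19*, surface and keratin markers of the mesothelium, were called higher in mutants, with log2 fold changes of 1.03 (adjusted p = 0.014 by edgeR, SE 0.19) and 1.06 (adjusted p = 0.00132, SE 0.12). Of 10 lung bud and trachea partners of TBX4 and TBX5, 5 were tested at each stage and none was called, and the median log2 fold change was -0.54 for E11.5 and -0.09 for E12.5. Of the 10 other genes of the T-box family, 9 were in the count table. *Mga*, whose protein joins a T-box to a MAX-binding domain, passed the filter at both stages and had log2 fold changes of 0.09 (SE 0.22) at E11.5 and -0.09 (SE 0.09) at E12.5, neither called. *Tbx6* passed it at E11.5 only, with 19, 5 and 3 counts in controls and 23, 17 and 15 counts in mutants.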

How the data were processed

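RNA-seq of embryonic hearts was analysed in 12 libraries. Per the labels and the methods, the authors aligned paired-end reads with Bowtie2 to mm10 and normalised with DESeq. The counting program, the annotation and use of the strand are not given in the sources used here. The authors deposited, for each stage, mean counts per group, each an average of 3 whole counts and handled here as an expected count only because it can hold a fraction, beside their own fold changes and p-values, which were not used. The deposited per-library signal, named RPKM, is not RPKM: each value is a whole count multiplied by gene length and a library factor. Factors were solved from the deposited means, and whole counts were recovered for 17827 genes (largest distance from a whole number 1.18e-09). A further 944 genes of the table, X-linked and Y-linked genes among them, were not tested here. Y-linked counts served only to sex the embryos.

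Counts were tested with edgeR 4.0.16 (quasi-likelihood, TMM) in R 4.3.3 among genes with a mean of at least 0.5 RPKM over the libraries of the fit, a gene being called at an adjusted p of at most 0.05 and 1.5-fold. The recovery and the test were checked on simulated data. Alternatives were DESeq2 1.42.0, limma 3.58.1 on log2(RPKM + 0.1, 0.5 or 1), other scaling and filters, and no fold threshold. Further ones were a sex term, a replicate block, 1 fit of all 12 libraries for the comparisons of 2 groups, and leaving out each library. Intervals cover the spread between libraries, and counting error alone where a count of 0 is given. The T-box genes and the lists were chosen with earlier results of these data known. All 7 factors were named, and of a list the called genes and at most the 4 with the highest mean RPKM, others being named after their values were seen. Coordinates are those of the files. Coding sequences came from GENCODE vM21.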

Additional observations from a re-analysis of the deposited data

How the results depend on the processing

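Across the alternatives no T-box factor was called in any comparison of the genotypes (0 in each), and the count in controls between stages ran from 0 to 1 as single libraries were left out, the 1 being *Tbx20* without E11.5 control replicate 2. Of 495 recomputed fold changes, 449 kept their direction and call, 1 became a call and 45 changed sign, none of them called before or after. The causes were not tested. With a sex term, the E11.5 log2 fold change was 0.11 for *Tbx2* and -0.26 for *Tbx20*, the stage-adjusted one of *Tbx20* -0.09, the difference between stages -0.08 for *Tbx2* and 0.04 for *Tbx5*, and the change in controls -0.06 for *Tbx3*. All 3 E11.5 controls but 1 of 3 E11.5 mutants had a summed Y-linked count of at least 100, so sex and genotype are hard to separate there. The sex term also moved *Tbx5* at E11.5 from -0.16 to -0.67 (adjusted p = 0.444 by edgeR) and *Tbx18* from -0.48 to -0.81 (adjusted p = 0.119). For *Tbx20* with stage as a term it was -0.00 without a filter and -0.01 by limma at each pseudocount. For the difference between stages of *Tbx2*, limma gave -0.04, -0.03 and -0.03 and the replicate block -0.03. Without the 2 E11.5 libraries high in lung and liver markers, the E11.5 values were 0.12 for *Tbx2*, 0.16 for *Tbx5* and -0.11 for *Tbx20*, the stage-adjusted *Tbx20* -0.15 and the difference between stages of *Tbx2* -0.27.

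Leaving out single libraries gave, at E11.5, -0.44 to 0.31 for *Tbx2*, -0.50 to 0.22 for *Tbx3*, -0.48 to 0.12 for *Tbx5*, -0.60 to -0.34 for *Tbx18* and -0.01 to 0.39 for *Tbx20*. For E12.5 it gave -0.32 to -0.01 for *Tbx2*, -0.69 to -0.39 for *Tbx3*, -0.27 to -0.08 for *Tbx5*, 0.03 to 0.25 for *Tbx18* and -0.24 to -0.12 for *Tbx20*. With stage as a term it gave -0.30 to 0.04 for *Tbx2*, -0.53 to -0.22 for *Tbx3*, -0.31 to -0.05 for *Tbx5*, -0.25 to -0.07 for *Tbx18* and -0.10 to 0.07 for *Tbx20*. The difference between stages ran from -0.49 to 0.26 for *Tbx2*, -0.78 to -0.05 for *Tbx3*, -0.30 to 0.29 for *Tbx5*, 0.46 to 0.73 for *Tbx18* and -0.56 to -0.16 for *Tbx20*. In controls the ranges were -0.69 to 0.06 for *Tbx2*, -0.27 to 0.45 for *Tbx3*, -0.18 to 0.41 for *Tbx5*, -0.56 to -0.29 for *Tbx18* and 0.38 to 0.68 for *Tbx20*.

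Replicate numbers were not shown to pair the libraries. Deviations of same-numbered libraries correlated from -0.128 to 0.425 over all pairs of groups, those across stages included. Between the E11.5 controls and mutants r was -0.029, 0.425 and 0.293 for replicates 1, 2 and 3. Not every library correlated best with its own number, and a shared batch at E11.5 was not tested. With the replicate block 0 factors were called in each comparison, *Tbx3* at E12.5 came to -0.56 (adjusted p = 0.0462 by edgeR), and over all genes the calls at E11.5 went from 14 to 73. At 3 libraries a group, 1.5-fold changes of *Tbx2*, *Tbx3* and *Tbx5* at E11.5 lay within the intervals of the fit without that block, and *Tbx1* and *Tbx4* were limited by counts of 40 or fewer.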
